A study of Sus scrofa with 8 samples.

Results

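The 10 genes described here, DCN, LUM, FBN1, ELN, DPT, FBLN1, MFAP5, SFRP2, THY1 and PDGFRA, are expressed by dermal fibroblasts, and most of them encode proteins of the collagen and elastic fibre networks. They were chosen by name, with 1 row for each Ensembl gene, and all 10 were found among the 31907 genes of the count table and passed the filter on low counts. DCN and LUM are proteoglycans, and ELN, FBN1, MFAP5 and FBLN1 belong to elastic fibres. DPT, SFRP2, THY1 and PDGFRA are neither, and share with the others that they mark fibroblasts.

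Small leucine-rich proteoglycans such as decorin and lumican bind collagen fibrils and regulate their width and spacing. Elastic fibres have a core of cross-linked elastin laid down on microfibrils built from fibrillin-1 with its partners, and fibulins join the core to the microfibrils and to cells. In skin, fibroblasts make both networks, which give the dermis its strength and recoil.

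RNA was sequenced from 8 whole skin biopsies of 2 wild-type Yorkshire pigs, called pig 13 and pig 14. In each animal, 2 sites were taken 3 h after 200 ng of IL-15, a cytokine that signals through JAK1 and JAK3, had been injected into the dermis in 100 µl of saline, and 2 control sites were left without injection. The study's purpose, per its design text, was to find genes induced by IL-15 as readouts for a topical JAK inhibitor, and the comparison here asks what the injection did to the matrix genes of fibroblasts. The injected sites all bear the number 12 and the control sites the numbers 6 and 7, with no saline-injected site in the groups analysed here, so IL-15, the injection itself and the place on the grid cannot be told apart. The 4 sites of a pig come from 1 animal, so p-values measure the spread between sites in these 2 pigs.

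Total counts per biopsy ran from 28471089 to 36070107. The first principal component of the most variable genes, with 63.1% of the variance of those genes, separated the pigs. The pig 13 control biopsy from site 7b stood apart on the second. In that biopsy 10 collagen genes whose products the proteoglycans bind summed to 25199.8 CPM (counts scaled to library size), against 84492 to 205982 CPM in the other 7 biopsies. Its markers of differentiated keratinocytes (11 of 13 symbols found) summed to 26539.6 CPM and those of basal keratinocytes (11 of 11) to 22897 CPM, the highest of all 8 biopsies in both, against 6695 to 13830 CPM and 8067 to 17147 CPM elsewhere. The differences between injected and control sites are therefore given with and without it for each of the 10 genes. In RNA of a whole biopsy, fewer fibroblasts and less RNA per fibroblast cannot be told apart.

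All 10 genes were detected in every biopsy, with 263 counts of SFRP2 at pig 13 injected site 12e as the lowest value. Together they held 0.254% of the counts at site 7b and 0.328% to 0.459% elsewhere. Levels of different genes are compared here as RPKM, which is CPM per kilobase of gene length, with the mean and SD over 8 biopsies. DCN stood highest at 1031 ± 281 RPKM and ranked 25th of 15851 tested protein-coding genes. THY1 followed at 173 ± 46.4 RPKM, and ELN at 85.6 ± 15.3, LUM at 83.8 ± 46.7 and FBN1 at 65.2 ± 6.92 RPKM lay within each other's spread. FBLN1 reached 51.6 ± 12.5 RPKM, and MFAP5, PDGFRA and DPT, at 17.4 ± 4.56, 14.4 ± 2.67 and 14.1 ± 4.93 RPKM, were not separated beyond their spread. Compared within each biopsy, FBN1 was below ELN and MFAP5 above PDGFRA everywhere except at site 7b. SFRP2 was lowest at 8.56 ± 6.14 RPKM and ranked 4835th.

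**Figure D1:**
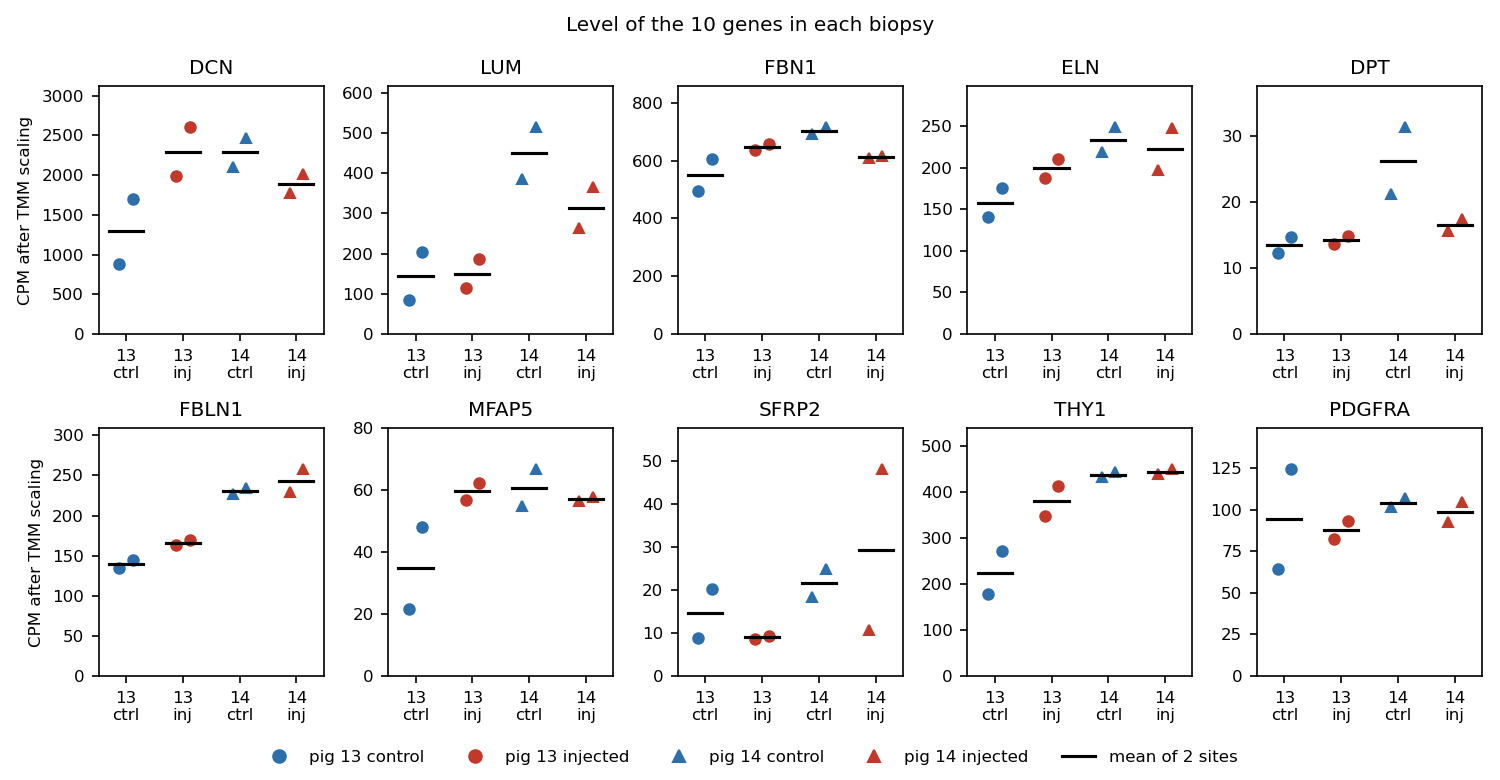
Level of each of the 10 genes in each of the 8 biopsies, 1 panel per gene, in CPM after TMM scaling on an axis from 0, with control (blue) and injected (red) sites of pig 13 (circles) and pig 14 (triangles) in separate columns and a line at the mean of each pair of sites. The injected and control biopsies overlapped for every gene, and LUM, FBLN1, DPT and THY1 lay higher at all 4 sites of pig 14 than at all 4 sites of pig 13.

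No gene of the 10 passed the test between injected and control sites. With the pig as a block, edgeR's quasi-likelihood test gave Benjamini-Hochberg adjusted p-values between 0.964 and 0.989 for the 10 genes, and 0 of 10 had an unadjusted p under 0.05. Across all 19862 genes tested, 7 were called, 0.0352%, all of them higher at injected sites, and 4.54% had an unadjusted p under 0.05. DESeq2 called 56 genes, 0.28% of those it tested, and 0 of the 10, of which THY1 had an unadjusted p under 0.05. The log2 differences of the 10 genes ran from -0.29 to 0.39 with a median of 0.08, against a median of -0.01 and a range from -0.44 to 0.43 between the 5th and 95th percentiles of all genes tested. The 4 injected and 4 control biopsies overlapped for all 10 genes, whereas 2.07% of all genes tested did not overlap. Without site 7b, 0 of the 10 were called and 1, DPT, had an unadjusted p under 0.05, against 0.094% and 5.92% of all genes. The values of each gene follow, in CPM after TMM scaling, with the site names of the labels.

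DCN (ENSSSCG00000000915) encodes decorin and lies on chromosome 5 of Sscrofa11.1 from 91678608 to 91714235 on the plus strand. In pig 14 it stood at 1772 and 2012 CPM at injected sites 12d and 12c and at 2107 and 2463 CPM at control sites 7e and 6b. In pig 13 it stood at 1984 and 2599.8 CPM at injected sites 12e and 12c and at 877 and 1703 CPM at control sites 7b and 6b. Injected sites were thus the lower ones in pig 14 and the higher ones in pig 13, and site 7b was the lowest of all. The difference, injected minus control, was 0.28 ± 0.28 (SE) on the log2 scale, with a 95% confidence interval from -0.34 to 0.90 (adjusted p = 0.964, edgeR). Without site 7b it was 0.00 ± 0.18, with an interval from -0.41 to 0.40.

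LUM (ENSSSCG00000000916), for lumican, is the next annotated protein-coding gene on the same strand, from 91748885 to 91757615. The protein-coding genes KERA and EPYC, for the related keratocan and epiphycan, come after it. LUM stood at 263 and 366 CPM at the injected sites of pig 14, 12d and 12c, and at 385 and 514 CPM at its control sites 7e and 6b. In pig 13 it stood at 113 and 186 CPM at injected sites 12e and 12c, at 205 CPM at control site 7b and at 84.3 CPM at control site 6b. Every site of pig 14 was above every site of pig 13, and in pig 13 both the highest and the lowest site were controls. The log2 difference between injected and control sites was -0.23 ± 0.31, with an interval from -0.96 to 0.49 (adjusted p = 0.969, edgeR), and it was -0.01 ± 0.36 without site 7b.

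DPT (ENSSSCG00000035937; chromosome 4, 82287730 to 82319367, plus strand) encodes dermatopontin, a small matrix protein that binds decorin. It stood at 17.4 and 15.5 CPM at the injected and at 21.1 and 31.2 CPM at the control sites of pig 14. In pig 13 it stood at 13.6 and 14.8 CPM at injected sites and at 12.2 CPM at site 7b and 14.6 CPM at site 6b. Both controls of pig 14 were above its injected sites, and the 4 biopsies of pig 13 lay close together. The log2 difference was -0.29 ± 0.18, from -0.70 to 0.11 (adjusted p = 0.964, edgeR), and -0.43 ± 0.17 without site 7b (adjusted p = 0.824).

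Among the elastic fibre genes, FBN1 (ENSSSCG00000004658; chromosome 1, 123102009 to 123359649, plus strand), for the microfibril protein fibrillin-1, had the smallest difference. At injected sites it stood at 617 and 610.2 CPM in pig 14 and at 659 and 638 CPM in pig 13. At control sites it stood at 692 and 715 CPM in pig 14, and in pig 13 at 605 CPM at site 7b and 496 CPM at site 6b. The injected biopsies lay between the controls of pig 14 and those of pig 13, and site 7b, where DCN was lowest, was not the lowest for FBN1. The log2 difference was 0.02 ± 0.13, from -0.27 to 0.31 (adjusted p = 0.989, edgeR), and 0.03 ± 0.14 without site 7b.

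ELN (ENSSSCG00000025858; chromosome 3, 11214073 to 11244897, plus strand) encodes tropoelastin, the soluble precursor of the elastin core. It stood at 247 and 197 CPM at the injected and at 218 and 249 CPM at the control sites of pig 14. In pig 13 it stood at 188 and 211 CPM at injected sites and at 141 CPM at site 7b and 176 CPM at site 6b. In pig 13 both injected sites were above both controls, and in pig 14 they overlapped. The log2 difference was 0.13 ± 0.13, from -0.16 to 0.43 (adjusted p = 0.964, edgeR), and 0.03 ± 0.12 without site 7b.

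MFAP5 (ENSSSCG00000031712; chromosome 5, 62742315 to 62759190, plus strand) encodes a glycoprotein of the microfibrils that binds fibrillin-1. Its 4 injected biopsies were close together at 57.7 and 56.4 CPM in pig 14 and 62.4 and 56.9 CPM in pig 13. Controls stood at 54.7 and 66.7 CPM in pig 14, at 47.9 CPM at site 6b of pig 13 and at 21.5 CPM at site 7b. Apart from site 7b the 7 biopsies differed little, and the log2 difference of 0.35 ± 0.28, from -0.30 to 0.99 (adjusted p = 0.964, edgeR), was 0.07 ± 0.12, from -0.19 to 0.33, without that site.

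FBLN1 (ENSSSCG00000000010; chromosome 5, 3839501 to 3927183, minus strand) encodes fibulin-1, which binds elastin, fibronectin and basement membrane proteins. At the sites of pig 14 it stood at 258 and 229.6 CPM (injected) and 235 and 227 CPM (control). At those of pig 13 it stood at 163 and 169.5 CPM (injected), 144 CPM (site 7b) and 135 CPM (site 6b). The order of the biopsies followed the animal, and the SD of log2 CPM between sites of the same pig and group, 0.07, was the smallest of the 10 genes. The log2 difference between injected and control sites was 0.17 ± 0.09, from -0.04 to 0.37 (adjusted p = 0.964, edgeR), and it was 0.17 ± 0.10 without site 7b.

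SFRP2 (ENSSSCG00000009004; chromosome 8, 75337133 to 75345926, plus strand) encodes a secreted protein of the frizzled-related family, which modulates Wnt signalling, and marks an abundant dermal fibroblast population. At injected sites it stood at 48.1 CPM at site 12d of pig 14 and at 10.8, 8.64 and 9.39 CPM at the other 3. Control sites stood at 24.8 and 18.4 CPM in pig 14, at 20.2 CPM at site 7b of pig 13 and at 8.94 CPM at its site 6b. One injected biopsy was thus above all controls and the remaining 3 were near the lowest control. Its SD of log2 CPM between sites of the same pig and group was 0.88, larger than that of 99.5% of the 5456 genes of like level (within 2-fold of its mean CPM). The log2 difference was -0.11 ± 0.54 and its interval, from -1.41 to 1.18, was the widest of the 10 (adjusted p = 0.986, edgeR). Without site 7b the sign turned, to 0.28 ± 0.53.

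THY1 (ENSSSCG00000032330; chromosome 9, 46607494 to 46612269, minus strand) encodes a glycolipid-anchored surface protein (CD90) used to sort fibroblasts. It stood at 440.4 and 449.9 CPM at the injected and at 433 and 443 CPM at the control sites of pig 14. In pig 13 it stood at 348 and 414 CPM at injected sites and at 178 CPM at site 7b and 271 CPM at site 6b. The 4 values of pig 14 were nearly equal, and in pig 13 both controls were below both injected sites. The log2 difference of 0.39 ± 0.18, from -0.01 to 0.80, was the largest of the 10 (adjusted p = 0.964, edgeR) and was 0.21 ± 0.13 without site 7b.

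PDGFRA (ENSSSCG00000008841; chromosome 8, 40967493 to 41021442, plus strand) encodes the alpha receptor for platelet-derived growth factors, carried by most dermal fibroblasts. At injected sites it stood at 105 and 92.6 CPM in pig 14 and at 82.1 and 92.9 CPM in pig 13. Controls stood at 107 and 101 CPM in pig 14, and in pig 13 at 124 CPM at site 7b and 64.5 CPM at site 6b. Site 7b, lowest of all 8 for DCN, MFAP5, THY1, ELN and DPT, was the highest of all for PDGFRA. The log2 difference was -0.09 ± 0.17, from -0.48 to 0.30 (adjusted p = 0.973, edgeR), and 0.12 ± 0.12 without site 7b.

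**Figure D2:**
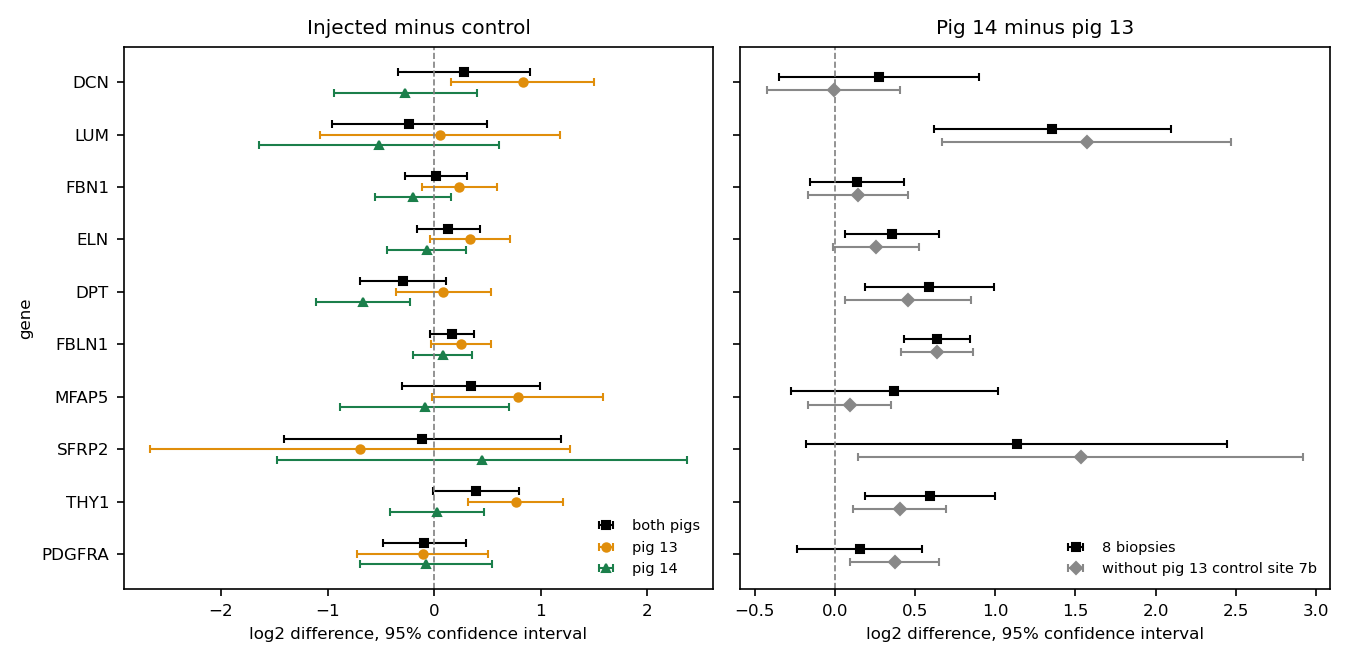
Log2 difference between injected and control sites for each gene with its 95% confidence interval, in both pigs together and in each pig (left). The differences in each pig are from the model of all 8 biopsies with an interaction of pig and injection. The right panel gives the difference between pig 14 and pig 13 with and without site 7b of pig 13. On the left, in both pigs together every interval includes 0, and DCN, MFAP5 and THY1 lie to the right in pig 13 and near or below 0 in pig 14.

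Within single animals the differences of several genes had opposite signs. They come from a model of all 8 biopsies with an interaction of pig and injection. Their SE and p-values therefore use a spread between sites estimated over both pigs, not that of the single animal. In pig 13, DCN was 0.83 ± 0.30, MFAP5 0.78 ± 0.34 and THY1 0.76 ± 0.20 higher at injected sites on the log2 scale, with the lowest adjusted p of the 10 genes at 0.408 (edgeR). Control site 7b was far below control site 6b for these genes, at 877 against 1703 CPM for DCN, 21.5 against 47.9 for MFAP5 and 178 against 271 for THY1. The differences in pig 13 are not given without site 7b. Of the 10 genes 0 were called in pig 13, where 0.0201% of all genes were, and 2, DCN and THY1, had an unadjusted p under 0.05, against 7.34% of all genes. Both injected sites of pig 13 were above both controls for 6 of the 10 genes, DCN, FBN1, ELN, FBLN1, MFAP5 and THY1, against 18.2% of all genes tested. In pig 14, DPT was -0.67 ± 0.20, LUM -0.52 ± 0.46, DCN -0.27 ± 0.30 and FBN1 -0.20 ± 0.16, with the lowest adjusted p of the 10 at 0.729 (edgeR). There 0 of the 10 were called, against 0.0252% of all genes, and DPT alone had an unadjusted p under 0.05, against 6.52%. Both injected sites of pig 14 were below both controls for DPT, LUM, DCN and FBN1, against 21.0% of all genes tested. DCN and FBN1 separated in both animals in opposite directions, as did 7.47% of all genes.

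The difference between the animals was itself tested as the interaction of pig and injection, and no gene was called by edgeR's quasi-likelihood test (0.0% of 19862), while 8.22% had an unadjusted p under 0.05. Of the 10 genes, 3 had such a p: DCN at -1.10 ± 0.42 (adjusted p = 0.548), DPT at -0.75 ± 0.28 (adjusted p = 0.546) and THY1 at -0.74 ± 0.28 (adjusted p = 0.546), each the log2 difference in pig 14 minus that in pig 13. DESeq2 called 89 genes, 0.595% of those it tested, and 0 of the 10. Without the other pig 13 control, site 6b, edgeR called 313 genes (1.55%) and among them DCN (-1.66, adjusted p = 0.0244), MFAP5 (-1.56, adjusted p = 0.0104) and THY1 (-1.08, adjusted p = 0.0314), and the pig 13 controls then consist of site 7b alone. Without site 7b, edgeR called 0 genes, 5 of the 10 had an unadjusted p under 0.05, against 11.3% of all genes in that fit, and DCN stood at -0.70 ± 0.28 (adjusted p = 0.388, edgeR). Markers of fat cells moved between the sites of pig 13 as well: 11 markers found of 12 summed to 8693 and 8273 CPM at its injected sites and to 2332 CPM (site 7b) and 3648 CPM (site 6b) at its controls, against 5704 and 2458 CPM at injected and 6691 and 4449 CPM at control sites of pig 14. The part of these cells in the differences was not tested.

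**Figure D3:**
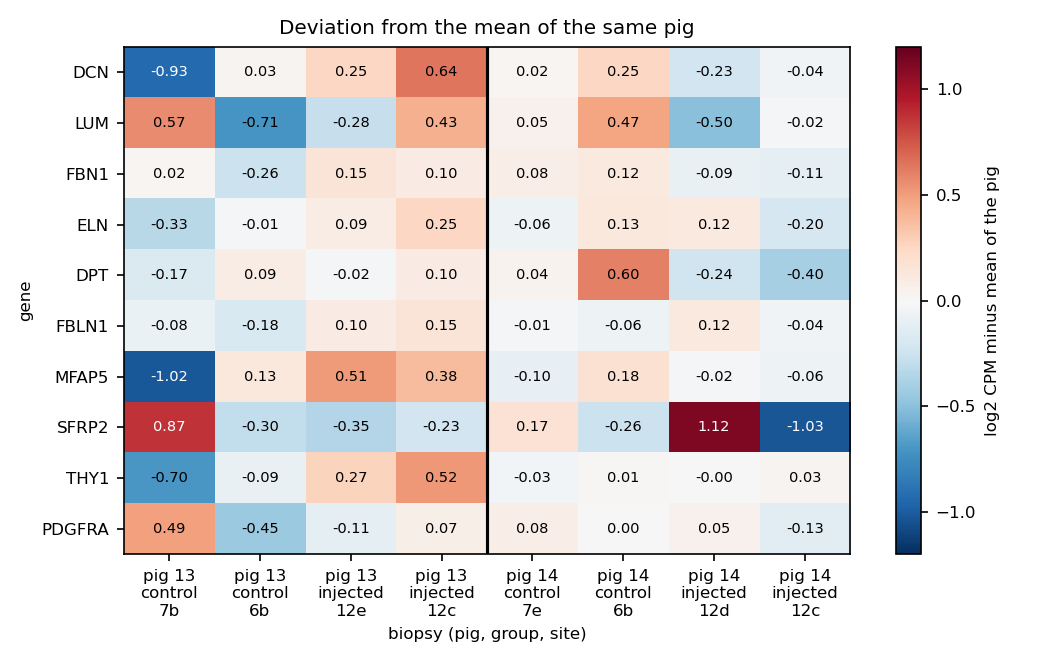
Deviation of log2 CPM from the mean of the same pig, for each of the 10 genes (lines) in each biopsy (columns), in red above and in blue below that mean. In site 7b of pig 13 DCN, MFAP5 and THY1 lie lowest while LUM, SFRP2 and PDGFRA lie above the mean of that pig.

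Ratios of RPKM within a biopsy, which do not depend on library scaling, showed that the 10 genes did not move as 1 block. DCN stood 8.04 to 11.3 times as high as LUM in pig 14, and 23.5 to 33.9 times as high at 3 sites of pig 13, but 7.19 times at site 7b. THY1 over PDGFRA was 12.5 to 15.04 in 7 biopsies and 4.43 at site 7b. FBN1 over its microfibril partner MFAP5 was 3.27 to 3.99 in 7 biopsies and 8.89 at site 7b, and DCN over FBN1 was 14.7 to 20.9 and 7.43, respectively. The ratio of FBN1 to ELN, microfibril to core, was 0.614 to 0.862 in 7 biopsies and 1.06 at site 7b. FBN1 over FBLN1 separated the animals, at 1.54 ± 0.09 (SD, 4 sites) in pig 13 and 1.09 ± 0.13 in pig 14.

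**Figure D4:**
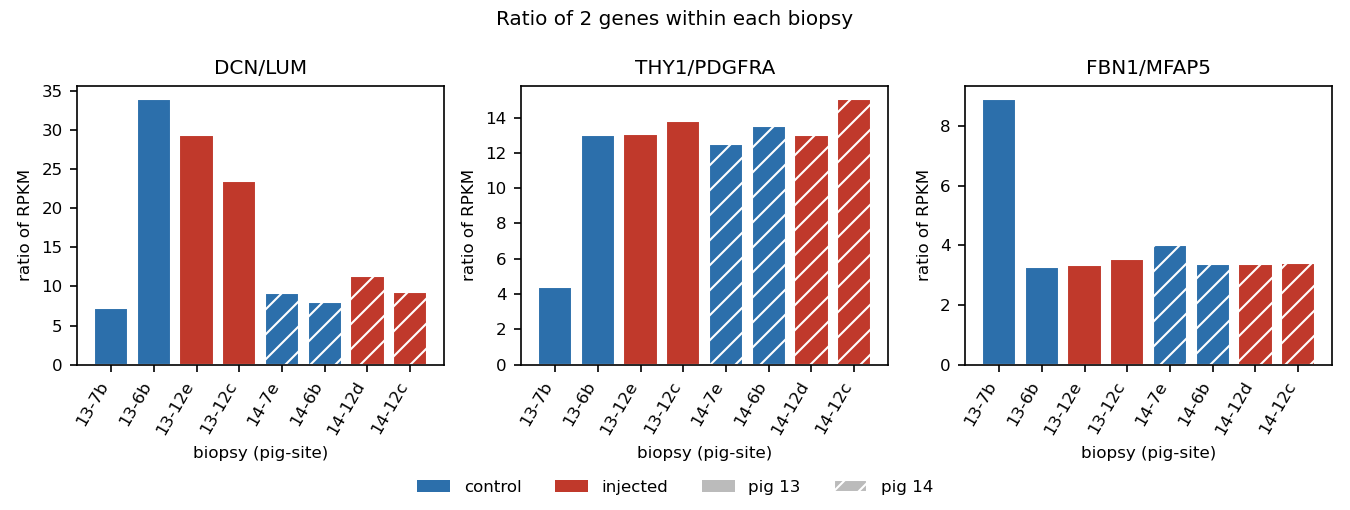
Ratios of RPKM between 3 pairs of the genes, as a bar for each of the 8 biopsies on an axis from 0, blue for control and red for injected sites and hatched for pig 14. THY1 over PDGFRA and FBN1 over MFAP5 are nearly constant in 7 biopsies and depart at site 7b of pig 13, at 4.43 and 8.89.

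Across the 8 biopsies, after the mean of each pig was removed, DCN correlated with THY1 (Pearson's r = 0.95) and MFAP5 (0.93) but not with its chromosomal neighbour LUM (-0.07). Without site 7b, DCN and LUM followed each other at r = 0.996 over 7 biopsies, DCN and THY1 at 0.76 and DCN and MFAP5 at 0.58. Of the 45 pairs of genes, 30 were positive with a median r of 0.28 with site 7b, and 37 with a median of 0.54 without it. These are descriptions over 8 biopsies that share 2 animals and a library each, with 1 biopsy setting much of the values. By the same measure, among 9622 genes with a mean of at least 10 CPM, those most like DCN were CLEC3B (tetranectin, r = 0.994), SPARC (osteonectin, 0.993) and CCDC80 (0.991), and those most like THY1 were C1QTNF7 (0.986), SSR1 (0.983) and PCOLCE (0.981), which encodes an enhancer of procollagen processing. MFAP5 was most like SLIT3 (0.983, and 0.781 without site 7b). ELN was most like IFIT5 (0.982), followed by HS1BP3 (0.964) and OGN, for the leucine-rich proteoglycan osteoglycin (0.964). LUM was most like UCHL5 (0.986), FBN1 like MFAP1 (0.977), DPT like PARN (0.976), FBLN1 like PEA15 (0.980), SFRP2 like BCL2L11 (0.941) and PDGFRA like WASHC5 (0.997). Without site 7b, the most alike gene of each member other than MFAP5 stood at 0.918 to 0.994. All these genes were picked as the highest among 9622, a choice that by itself favours high values.

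The 2 animals differed in some of the 10 genes. FBLN1 was 1.56-fold higher in pig 14, at 237 ± 14.0 CPM (SD, 4 sites) against 153 ± 16.2 CPM in pig 13, with a log2 difference of 0.64 ± 0.09 (adjusted p = 0.00271, edgeR's quasi-likelihood test). LUM was 2.56-fold higher, at 382 ± 103 against 147 ± 57.4 CPM, with a log2 difference of 1.35 ± 0.32 (adjusted p = 0.0353, edgeR). All 4 sites of pig 14 were above all 4 sites of pig 13 for LUM, FBLN1, DPT and THY1, against 9.87% of all genes tested. In CPM without TMM scaling, LUM and FBLN1 separated the pigs and DPT and THY1 overlapped. The 2 genes called compare with 10.7% of all genes called between the pigs, 1270 of them higher and 863 lower in pig 14, and 5 of the 10 had an unadjusted p under 0.05, against 26.7% of all genes. The test compares these 2 animals over the spread of their sites and says nothing of other pigs.

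FBLN1 was called in all 8 fits that left out 1 biopsy, with adjusted p-values from 0.00301 to 0.0163. LUM was called in 3 of these 8, at 1.09 to 1.57 on the log2 scale with adjusted p-values from 0.0162 to 0.0915. Without site 7b, LUM stood at 1.57 (adjusted p = 0.051, edgeR). The other 8 genes were also above 0 in this direction, from 0.14 ± 0.13 for FBN1 to 1.13 ± 0.54 for SFRP2, without passing the test. DPT at 0.59 ± 0.18 (adjusted p = 0.0654, edgeR) and THY1 at 0.59 ± 0.18 (adjusted p = 0.0639, edgeR) were called by DESeq2, with adjusted p-values of 0.03 and 0.0169, where DESeq2 called 13.9% of all genes. Scaled by library size only, the median of all genes moved to -0.21, 921 genes were called higher and 3936 lower, FBN1 (-0.07) and PDGFRA (-0.05) turned below 0, and FBLN1 and LUM were still called higher. Markers of leukocytes also differed between the animals: 7 of 14, among them CD2, CD3E and PTPRC, were called higher in pig 14. Markers of basal keratinocytes moved the other way, with a median log2 difference of -0.67, 7 of 11 at an unadjusted p under 0.05, 1 called lower in pig 14 by edgeR (KRT5, adjusted p = 0.0484) and 7 by DESeq2. The part of these cells in the differences between the pigs was not tested.

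Other genes of the same networks were counted in 11 lists with 230 genes tested, and 0 of them were called between injected and control sites by edgeR with all 8 biopsies. An unadjusted p under 0.05 was found for 18 of the 230, and DESeq2 called 5, beside the 4.54% and 0.28% of all genes given above. The lists have no test of their own here, and their medians stand beside the -0.01 of all genes tested. The 11 other small leucine-rich proteoglycans tested had a median log2 difference of 0.33, which was 0.01 without site 7b. FMOD, for fibromodulin, had the smallest p among them, at 1.19 ± 0.55 with 39.4 to 244 CPM at injected and 17.9 to 50.3 CPM at control sites (adjusted p = 0.964, edgeR). The 10 collagens likewise had a median of 0.22, and 0.01 without site 7b. COL12A1, a collagen found on the surface of fibrils, stood at 1240 to 1365 CPM at injected and 792 to 1049 CPM at control sites, which did not overlap, with a log2 difference of 0.47 ± 0.14 (adjusted p = 0.895, edgeR, and 0.0495 with DESeq2).

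The 21 large and cell-surface proteoglycans had a median of 0.12. SDC4, for the cell-surface heparan sulfate proteoglycan syndecan-4, stood at 59.6 to 76.3 CPM at injected and 38.0 to 52.3 CPM at control sites, 0.58 ± 0.11 on the log2 scale (adjusted p = 0.37, edgeR, and 0.0128 with DESeq2). The 29 other elastic fibre and microfibril genes had a median of 0.11, and 0.02 without site 7b, and FBLN7 had the smallest p of them at 0.50 ± 0.15 (adjusted p = 0.895, edgeR). The 8 cross-linking enzymes had a median of 0.09, with LOX, which joins elastin and collagen chains, at 0.42 ± 0.32, and LOXL4, of the smallest p, at 0.34 ± 0.18. LOX was chosen after its values were seen.

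The 33 matrix proteases and inhibitors had a median of -0.04, and 0.13 without site 7b. ADAMTS4, which cleaves large proteoglycans and was chosen after its values were seen, had means of 48.1 CPM at injected and 11.12 CPM at control sites, 2.22 ± 0.50 on the log2 scale (adjusted p = 0.807, edgeR). It was called higher at injected sites by edgeR without site 7b. The 23 enzymes of glycosaminoglycan chains had a median of 0.01, the 24 genes of the TGF-beta and BMP pathway of -0.01, the 29 Wnt genes of 0.12, the 6 PDGF ligands and receptors other than PDGFRA of 0.06 and the 36 other fibroblast genes of 0.12. The genes of the smallest p in these were CHST3 (0.27 ± 0.10), TGFB2 (0.26 ± 0.11), FZD1 (0.33 ± 0.12), PDGFB (-0.33 ± 0.13) and COL13A1 (-1.18 ± 0.47, under 1 CPM in every biopsy), all with an adjusted p of 0.964 (edgeR).

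**Figure D5:**
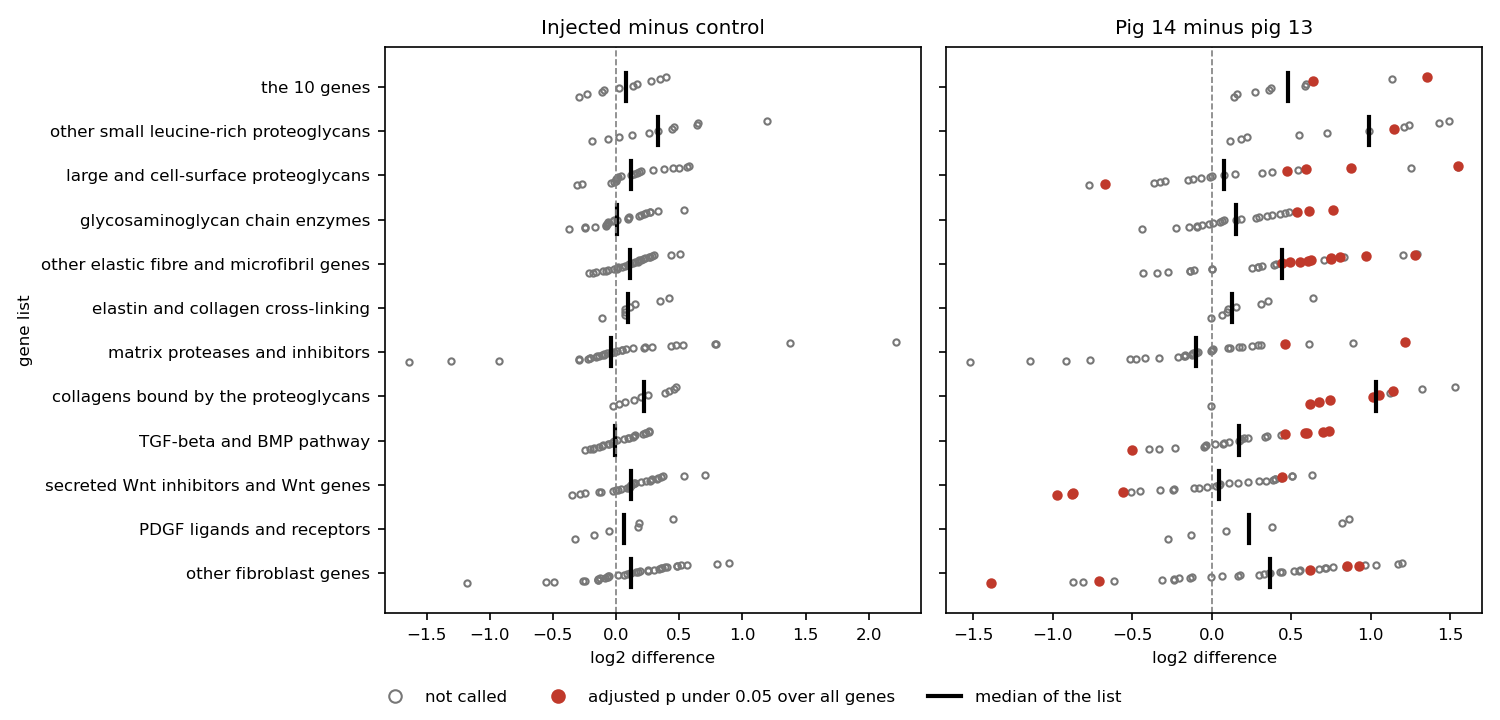
Log2 differences of the genes of each list, injected minus control and pig 14 minus pig 13, with 1 point per gene, a bar at the median of each list and the genes called by edgeR filled in red. In the comparison of injected with control sites 0 genes of any list were called, and between the pigs 10 elastic fibre genes and 6 collagens were called, all higher in pig 14.

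Between the pigs, where 6.39% of all genes tested were called higher and 4.34% lower in pig 14, several of these lists held calls. Of the 29 other elastic fibre and microfibril genes, 10 were higher and 0 lower in pig 14 by edgeR, with a median log2 difference of 0.44. They included EFEMP2 (0.75 ± 0.11) and FBLN5 (0.50 ± 0.11), 2 further fibulins, the microfibril-associated EMILIN1 (0.56 ± 0.12), LTBP3 (0.81 ± 0.17), which holds latent TGF-beta on microfibrils, and ADAMTSL1 (1.28 ± 0.18). Scaled by library size only, 6 were higher and 4 lower, and without site 12d or without site 7e of pig 14, 3 were higher. Of the 10 collagens, 6 were higher, COL5A1, COL5A2, COL6A1, COL6A2, COL6A3 and COL14A1, with a median of 1.03, and 2 to 6 were called when 1 biopsy was left out. Among the small leucine-rich proteoglycans 1 of 11 was called, ASPN, for asporin, at 27.5 ± 6.14 against 12.4 ± 1.38 CPM (1.146 ± 0.17 on the log2 scale, adjusted p = 0.00299, edgeR).

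Of the 21 large and cell-surface proteoglycans, VCAN (0.88 ± 0.16), HSPG2 (0.60 ± 0.14), TGFBR3 and GPC6 were higher and SDC1, abundant in keratinocytes, was lower (-0.67 ± 0.15) in pig 14. Without site 12d of pig 14, 1 of these was higher and 0 lower. The glycosaminoglycan enzymes gave 3 higher and 0 lower, XYLT1, CHST12 and UST, and the proteases gave 2 higher and 0 lower, BMP1, which cleaves procollagens, and MMP12, the macrophage elastase. In the TGF-beta and BMP pathway 5 were higher and 1, CCN2, lower, among Wnt genes 1, WNT5A, was higher and 4 lower, and among the other fibroblast genes 3 were higher and 2 lower, S100A4 with -1.39 ± 0.14 among them. Scaled by library size only, which moves the median of all genes to -0.21, these counts of higher and lower genes became 2 and 3 for the large proteoglycans, 1 and 1 for the glycosaminoglycan enzymes and 1 and 3 for the proteases. By that scaling they were 3 and 4 for the TGF-beta and BMP pathway, 0 and 5 for Wnt genes and 2 and 4 for the other fibroblast genes. Of the 10 collagens 3 were then higher and 0 lower. Cross-linking enzymes and the PDGF genes gave 0 calls by edgeR, with 2 of 8 and 2 of 6 at an unadjusted p under 0.05 and 1 and 2 called by DESeq2.

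Markers of other cells in the biopsies were also compared between injected and control sites, and 0 of their 102 genes tested were called by edgeR. An unadjusted p under 0.05 was found for 11 and DESeq2 called 2, beside 4.54% and 0.28% of all genes. Summed levels overlapped for keratinocytes, fat, hair follicle, blood vessel, leukocyte, skeletal muscle, nerve and gland markers. The 11 markers of differentiated keratinocytes had a median log2 difference of -0.45, and -0.30 without site 7b, with 5 of them at an unadjusted p under 0.05. The 12 blood vessel markers had a median of 0.16, and 0.21 without site 7b. Of these, 4 had an unadjusted p under 0.05 and 1 was called higher by DESeq2. Of the 10 marker lists, only that of smooth muscle and pericytes had summed levels that did not overlap. They were 1672 to 1822 CPM at injected and 1516 to 1653 CPM at control sites. Its 11 genes had a median log2 difference of 0.06, and 0.07 without site 7b. Of these genes 0 had an unadjusted p under 0.05 and 0 were called by edgeR or DESeq2. Among defining markers, TYRP1, of pigment cells, had at most 3 counts in any biopsy. The part of these cells in the values of the 10 genes was not tested.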

How the data were processed

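Whole skin biopsies were lysed, total RNA was taken with a lipid tissue kit and ribosomal RNA was depleted, per the labels' protocols. The submitters' processing notes name STAR 2.5.1a, featureCounts 1.4.6-p5 and the build Sscrofa11.1; whether counting used strand is not given in these sources. The deposited tables hold read counts for each Ensembl gene, and CPM and RPKM that the authors computed from these counts, per the file headers. The deposited CPM and RPKM were only compared with the counts. The single file of pig 13 control site 7b held 607 genes, so every count came from the table of all 8 biopsies, whose 32388 rows gave 31907 genes after identical repeats were merged. None of the 10 genes shares exon bases with another annotated gene.

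Genes were filtered with filterByExpr (minimum count 10), which left 19862, scaled by TMM and tested with edgeR 4.0.16 in R 4.3.3 (quasi-likelihood F test, robust, with pig and injection in the model and Benjamini-Hochberg adjustment over all genes tested), and called at an adjusted p under 0.05. The pig was a block because the labels name each animal. The biological coefficient of variation was 19.8%. Alternatives were DESeq2 1.42.0, other scalings and filters, no block and each biopsy left out. The differences in each pig came from the interaction model of all 8 biopsies, with the spread estimated over both pigs, and neither pig was fitted alone. The script was tested on simulated data. CPM and RPKM in the text were recomputed after TMM scaling. Interaction and pig coefficients came from the same counts. The genes and lists were chosen with earlier results of these data known. Named genes are all 10, the gene of each list with the smallest p between injected and control sites, those called, and for likeness the 3 genes with the highest correlation of log2 CPM (prior count 2). One gene taken by this rule is not reported here. No sequences are printed.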

Additional observations from a re-analysis of the deposited data

Results flagged for a closer look

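DCN and FBN1 were higher at both injected sites than at both controls in pig 13 and lower in pig 14. The log2 difference in pig 14 minus that in pig 13 was -1.10 for DCN and -0.43 for FBN1, and edgeR's quasi-likelihood test called neither (adjusted p = 0.548 and 0.644).

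In 62 groups of 4 biopsies checked for 1 sample far from the rest, where chance marks about 1 in 20, 4 such values were found. SFRP2 stood at 48.1 CPM at site 12d of pig 14, far above the other 3 injected biopsies. FMOD, for fibromodulin, stood at 244 CPM at the same site, also far above the other 3. Among controls, KLK5, a protease of the outer epidermis, stood at 28.03 CPM at site 6b of pig 13, far below the rest, and TAGLN, a smooth muscle gene, at 293 CPM at site 7e of pig 14, far above the rest.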

How the results depend on the processing

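None of the 10 genes was called between injected and control sites under any alternative run. The count of all genes called there, 7, was 56 with DESeq2, 6 with no replicate block and 3 to 19 when 1 biopsy was left out (19 without pig 13 site 7b, 3 without pig 14 site 12d or 6b, 4 without pig 13 site 12c); the cause was not tested. With no replicate block SFRP2 turned from -0.11 to 0.0863, and the block changed no call of the 10 genes.

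Leaving out 1 biopsy moved DCN between -0.0004 (without site 7b) and 0.45, FBN1 between -0.081 and 0.0746, SFRP2 between -0.81 and 0.28 and PDGFRA between -0.25 and 0.12. The sign turned in single animals for DCN (-0.27), FBN1 (-0.20), ELN (-0.0703), MFAP5 (-0.09) and SFRP2 (0.45) in pig 14 and for LUM (0.0519) and DPT (0.0831) in pig 13.

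Between the pigs, 2133 genes were called, 4857 by library size only and 1142 to 2240 with 1 biopsy left out (1142 to 1215 without pig 14 site 12d, 7e or 6b or pig 13 site 12e). Of the 10 genes 2 were called, 1 with no low-count filter, 4 with DESeq2 and 1 to 3 with 1 biopsy left out (1 without pig 14 site 7e or 6b or pig 13 site 12e or 7b). By library size only FBN1 was -0.0708 and PDGFRA -0.0494, and with 1 biopsy left out DCN ranged from -0.0067 to 0.45 and PDGFRA from -0.0041 to 0.37.

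For the interaction, 0 genes were called, 8 with no low-count filter, 89 with DESeq2 and 0 to 313 with 1 biopsy left out, among them 0 to 3 of the 10 (3 without pig 13 site 6b). SFRP2 ranged from -0.29 to 1.87 and PDGFRA from -0.52 to 0.43.

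Each of the 10 genes had at least 263 counts in every biopsy; the effect of depth was not tested. With 2 sites per pig and group, the intervals of SFRP2, LUM, DCN, MFAP5, THY1 and DPT include changes of more than 1.5-fold.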
